A study of Homo sapiens with 6 samples.

Results

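The regions described here are stretches of accessible chromatin that lie at an end of a long non-coding RNA (lncRNA) gene and away from the ends of protein-coding genes, called below lncRNA-end regions. They were selected on the presence of a peak in all 6 deposited peak lists, on a merged length under 1500 bp and on a midpoint within 1 kb of an lncRNA gene end and more than 1 kb from every coding gene end. Presence and merged length are thus measured values that chose the regions, while the strength of their peaks was not used directly. Presence in all 6 lists still asks for a peak strong enough to be called in every library. The rule found 1890 regions, which is 5.07% of the 37261 regions with a peak in every list and 0.373% of all 507086 merged regions on chromosomes 1 to 22 and X. The assay was ATAC-seq, in which a transposase inserts sequencing adapters into open DNA, and the cells were NCI-H1703, a human cell line that the labels call lung squamous cell carcinoma. The labels name 3 libraries of cells with silenced DLGAP1-AS2, itself an lncRNA, and 3 of control cells. The library titles mark the silenced cells ASO and the control cells NC, and neither a time nor a dose is given for either group. Each library took 10000 to 50000 cells, and nothing in the labels says that libraries of a group came from separate cultures, so p-values measure only the spread between these libraries.

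LncRNAs are transcribed by RNA polymerase II from promoters that are nucleosome-poor when in use, and ATAC-seq reads such promoters as peaks. Many lncRNA genes carry names for their position: antisense transcripts (suffix -AS) overlap a coding gene on the other strand, divergent transcripts (-DT) start near a coding promoter and run away from it, and host genes (SNHG, MIR...HG) carry small nucleolar RNAs or microRNAs in their introns or exons. Others act in the nucleus as scaffolds, for example MALAT1 in nuclear speckles and NEAT1 in paraspeckles. The rule leaves out regions near a coding gene end, so the regions that remain have an lncRNA end, and no coding gene end, within 1 kb. It sees only the outer ends of coding genes and no start sites inside them. Of the 1890 regions, 654 lie inside a coding gene span.

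Fold enrichment and height (pileup) are the authors' values for each peak. Because depth in reads is not given, strength was read as a percentile within a list: the fold enrichment of the strongest peak in a region was ranked among the 37261 shared regions of that library, with 100 for the strongest. Where 3 values are given for a group, they are those of replicates 1, 2 and 3 in that order. The lists held 91282 to 170747 peaks. The median height of shared regions was 10 in silenced replicate 3 and 16 to 19 in the other libraries, and over the lncRNA-end regions the percentiles of silenced replicate 3 correlated with the others at a Spearman rho of 0.747 to 0.767, against 0.839 to 0.860 for the other pairs (across regions, which share their libraries). The comparisons between classes and between groups are given with and without this library, and single values of each library show it beside the others. Of 7 squamous marker genes, 1 (SOX2) had a shared region within 1 kb of a gene end and TP63, KRT5, KRT14, KRT6A, DSG3 and PKP1 had none. Of the mesenchymal markers, 3 of 3 had one. Of the lung adenocarcinoma and alveolar markers, NKX2-1, NAPSA and SFTPC had one, SFTPB had none and SFTA3 was not a coding gene of the table. Of the blood markers, 0 of 3 had one.

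The promoter windows of 6 lncRNA genes that have an lncRNA-end region are printed below. They run from 250 bases before to 50 after a gene's start, are from RefSeq on GRCh38.p14, and are printed 5′ to 3′ on the gene's strand. Capitals mark matches, on either strand, to the motifs that were searched: CCAAT, the ETS-type CCGGAAG, the GC box GGGCGG, the NRF1 palindrome, TATAAA, the TEAD-type GGAATG and the AP-1 site TGACTCA. A match is only a run of letters in the window and not a bound site. The bases of the regions themselves were not read, and a window can cover only part of a region. At EPB41L4A-AS1 the midpoint of the region, 354 bp from the gene's start, lies beyond the window. DLGAP1-AS2 (chr18:3603487-3603786, plus strand) is shown as the silenced gene, with 2 AP-1 matches. DANCR (chr4:52712144-52712443, plus strand), SNHG8 (chr4:118278512-118278811, plus strand) and EPB41L4A-AS1 (chr5:112160276-112160575, plus strand) are shown for high percentiles, the first 2 rich in CpG and the last poor in it and free of these motifs. MALAT1 (chr11:65497488-65497787, plus strand) is shown for a CpG-rich window with a low percentile, and LINC03051 (chr3:117997530-117997829, minus strand), which has none of these motifs, for the smallest unadjusted p among regions with a higher rank in silenced cells.
DLGAP1-AS2: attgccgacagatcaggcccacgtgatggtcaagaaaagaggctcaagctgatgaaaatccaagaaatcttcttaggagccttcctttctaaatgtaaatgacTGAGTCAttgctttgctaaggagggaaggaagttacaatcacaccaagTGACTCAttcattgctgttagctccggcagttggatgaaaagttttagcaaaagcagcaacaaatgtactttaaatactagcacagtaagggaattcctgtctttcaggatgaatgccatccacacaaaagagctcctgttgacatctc
DANCR: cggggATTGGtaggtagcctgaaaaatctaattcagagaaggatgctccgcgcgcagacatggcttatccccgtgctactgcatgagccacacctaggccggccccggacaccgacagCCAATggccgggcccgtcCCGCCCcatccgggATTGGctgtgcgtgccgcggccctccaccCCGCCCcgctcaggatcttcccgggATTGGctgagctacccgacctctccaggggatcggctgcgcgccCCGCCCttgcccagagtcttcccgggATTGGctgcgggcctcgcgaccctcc
SNHG8: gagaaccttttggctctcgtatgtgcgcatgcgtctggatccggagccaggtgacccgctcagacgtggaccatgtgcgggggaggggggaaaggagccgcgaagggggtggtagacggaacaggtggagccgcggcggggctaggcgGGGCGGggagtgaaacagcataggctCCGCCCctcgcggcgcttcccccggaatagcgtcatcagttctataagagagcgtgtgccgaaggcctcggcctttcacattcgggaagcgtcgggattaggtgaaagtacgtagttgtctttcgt
EPB41L4A-AS1: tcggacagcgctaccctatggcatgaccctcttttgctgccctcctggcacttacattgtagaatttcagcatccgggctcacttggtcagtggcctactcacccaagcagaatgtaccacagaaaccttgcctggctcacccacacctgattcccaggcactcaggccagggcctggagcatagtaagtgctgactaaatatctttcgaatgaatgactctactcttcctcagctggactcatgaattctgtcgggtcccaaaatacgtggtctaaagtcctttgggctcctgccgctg
MALAT1: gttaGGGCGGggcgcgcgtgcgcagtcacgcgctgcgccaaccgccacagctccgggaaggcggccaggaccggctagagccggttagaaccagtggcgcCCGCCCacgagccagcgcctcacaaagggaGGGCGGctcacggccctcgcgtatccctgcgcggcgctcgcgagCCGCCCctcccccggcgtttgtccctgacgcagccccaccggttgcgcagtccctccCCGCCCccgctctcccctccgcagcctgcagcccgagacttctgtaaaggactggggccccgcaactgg
LINC03051: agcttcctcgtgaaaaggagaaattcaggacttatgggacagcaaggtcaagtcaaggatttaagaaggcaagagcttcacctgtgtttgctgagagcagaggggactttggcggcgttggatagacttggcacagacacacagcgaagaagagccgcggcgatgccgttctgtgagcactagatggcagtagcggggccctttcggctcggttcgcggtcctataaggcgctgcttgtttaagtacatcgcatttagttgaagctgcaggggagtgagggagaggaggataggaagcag

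The first comparison asked how strong chromatin opening at lncRNA ends was beside other shared regions. In every library the lncRNA-end regions stood between coding gene ends and the rest of the genome. Their median percentile was 51.3, 51.8 and 51.1 in the silenced libraries, and the control libraries had 51.8, 50.6 and 52.2. All classes compared hold only regions under the 1500 bp limit, which leaves out 585 longer shared regions. The 10417 such regions within 1 kb of a coding gene end had medians of 70.6 to 74.7 over the 6 libraries. The 14922 gene-body regions, more than 1 kb from any coding or lncRNA gene end, had medians of 40.7 to 42.6, and the 9447 intergenic regions 41.3 to 43.3. The 3 ranges did not overlap with that of the lncRNA-end regions.

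The difference of the lncRNA-end median from that of coding ends was −22 ± 1.46 percentile points (SD, n = 6 libraries), and it was lower in 6 of 6 libraries. It was 10.2 ± 1.03 points (SD, n = 6 libraries) above that of gene-body regions and 9.39 ± 1.20 points (SD, n = 6 libraries) above that of intergenic regions, each in 6 of 6 libraries. The two-sided exact sign-flip test over the libraries gave p = 0.03125 for each of these 3 differences, the smallest value 6 libraries can give, with an adjusted p of 0.0521 over 5 exact tests. The libraries share the same regions, so this test speaks of these libraries and not of other sets of lncRNA genes. Without silenced replicate 3 the differences were −22.5, 10.6 and 9.71 points. Ranking by height left the difference to coding ends at −21.3 and moved those to gene-body and intergenic regions to 18.2 and 18.2 points. A limit of 2 kb to a gene end gave 6.71 and 6.14 points for the last 2, and 500 bp gave 14.5 and 13.6.

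**Figure D1:**
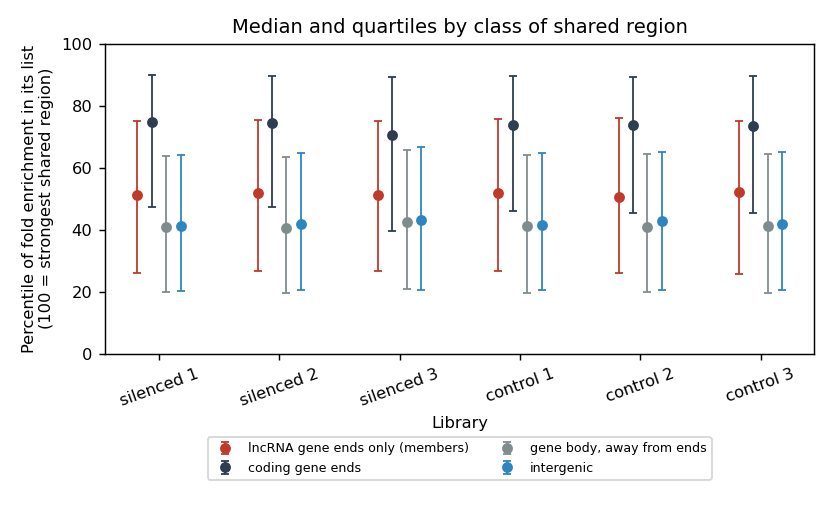
Median (points) and quartiles (bars) of the within-list percentile of fold enrichment for 4 classes of shared region in each of the 6 libraries (horizontal axis). The median of the lncRNA-end regions lies between 50.6 and 52.2 in every library, below coding gene ends and above gene-body and intergenic regions, while the quartile bars of the classes overlap.

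Single regions varied widely around these medians. The lower quartile of the percentile was 25.7 to 26.8 over the 6 libraries, and the upper quartile reached 76.1 in control replicate 2. Between 8.31% and 9.95% of the lncRNA-end regions of a library were above percentile 90 of the shared regions, against 23.7% to 25.2% of coding-end regions and 3.76% to 4.46% of gene-body and intergenic ones. The median height was 11 in silenced replicate 3 and 18 to 22 in the other libraries. Of the 1890 lncRNA-end regions 1062 (56.2%) had a peak with an FDR no higher than 1e-05 in each of the 6 lists, as had 74.1% of coding-end, 41.6% of gene-body and 42.0% of intergenic regions. The SD of a region's percentile over the 6 libraries had a median of 10.4 points among the lncRNA-end regions, and of 9.01 points without silenced replicate 3. Merged lengths, which the rule limits, had a median of 627 bp.

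The lncRNA-end regions reached 1892 of the 18177 lncRNA genes on these chromosomes (10.4%). By nearest end they belonged to 1794 genes, 93 of which had 2 or more regions. Genes named as small nucleolar RNA hosts (SNHG) were reached most often among the name classes (14 of 29 genes, 48.3%). Genes named as microRNA hosts followed (22 of 87, 25.3%). The classes follow the symbol only, so a host gene with another kind of name is counted elsewhere. The share was 14.7% for antisense genes, 13.7% for LINC genes, 8.75% for genes with a LOC number and 7.11% for divergent transcripts. Divergent transcripts start near a coding promoter, and the rule leaves out regions within 1 kb of a coding gene end. The shares therefore do not compare accessibility between name classes. The 44 regions at divergent transcripts lay 1014 to 113208 bp from an end of the partner gene. Of the 306 antisense regions, 221 were inside the span of the coding gene in their name.

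The name classes also differed in strength, given here as descriptions. The 15 regions at genes with an SNHG name, whose introns release the small RNAs that guide ribosomal RNA modification, had a median percentile (mean over 6 libraries for each region) of 79.3. The median was 55.6 for divergent, 55.2 for LINC, 51.2 for antisense and 48.7 for microRNA host regions, and 47.2 for the 1075 LOC regions. Over all 1890 regions it was 49.6. The SNHG genes at the top were SNHG30 (97.4), SNHG15 (97.0), SNHG21 (93.1) and SNHG16 (90.7). The lowest regions of that class were at SNHG26 (21.6) and SNHG3 (9.10), and both lay at the far end of the gene and not at its start. A second SNHG26 region, at the start, had 54.8. Among the microRNA hosts the range was as wide, from 3.63 at MIRLET7BHG to 91.5 at one of the regions of MIRLET7A1HG.

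Strand could be read from the RefSeq promoter windows for 1375 of the 1890 regions, so the end of the gene could be told apart. A total of 994 regions lay at the start, 335 at the far end and 46 within 1 kb of both ends of a short gene. Regions at a start had a median percentile of 54.4 and those at a far end 41.8. In each library the start median (53.6 to 56.8) was above the far-end median (43.6 to 46.2). Distance showed the same order: regions with a midpoint up to 250 bp from the lncRNA end had a median of 59.0, those beyond that and up to 500 bp 47.4 and those farther out 40.6, which is near the 39.4 and 40.5 of gene-body and intergenic regions. The median was 49.2 for the 654 regions inside a coding gene span and 49.8 for the 1236 outside. The median distance to the nearest coding end was 17876 bp, and the 488 regions over 50 kb from one had a median percentile of 46.4, against 52.4 at 5 to 50 kb and 49.2 at 1 to 5 kb. No test was run on these subgroups.

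**Figure D2:**
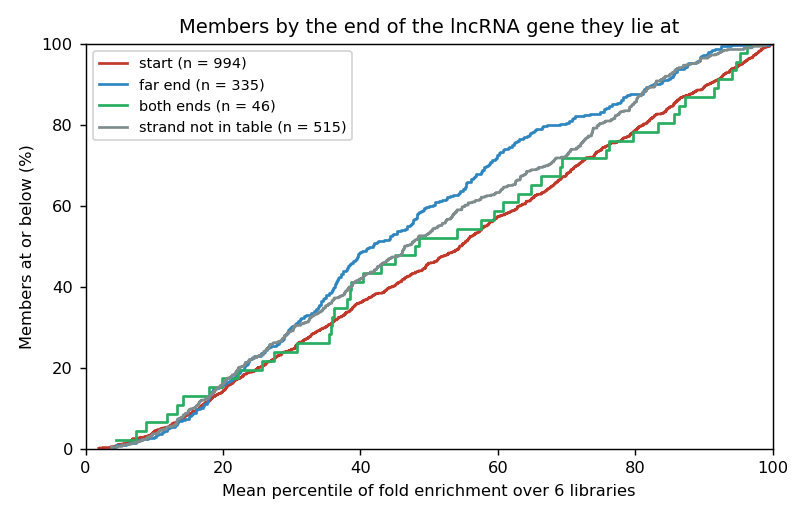
Cumulative share of the lncRNA-end regions (vertical axis, %) by the mean percentile of fold enrichment over 6 libraries (horizontal axis), split by the end of the lncRNA gene they lie at. The 335 regions at a far end collect at lower percentiles than the 994 at a start, with medians of 41.8 and 54.4.

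Strength went with base composition. A CpG ratio, the count of CG pairs over the count that the C and G content would give, was computed for the promoter windows, in which low values mark DNA that has lost CpG. Of the regions with a window, 788 overlapped one, at 786 different windows. These windows had a median GC content of 61.2% and a median CpG ratio of 0.675, close to the 62.3% and 0.738 of the 22155 windows of coding genes and above the 50.0% and 0.286 of all 12836 lncRNA windows. The 786 windows were chosen by an overlapping shared region, while the coding and lncRNA sets hold all windows, with such a region or without. The 450 regions with a ratio of 0.6 or more had a median percentile of 68.7 (65.6 to 72.0 over libraries), and the 338 with a lower ratio had 44.8 (44.0 to 50.7). The 6 windows printed above show the exceptions too. EPB41L4A-AS1, with a ratio of 0.351, had a mean percentile of 90.9, and MALAT1, with 0.925, had 29.9. DLGAP1-AS2 had a ratio of 0.227 and a GC content of 42.0%.

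**Figure D3:**
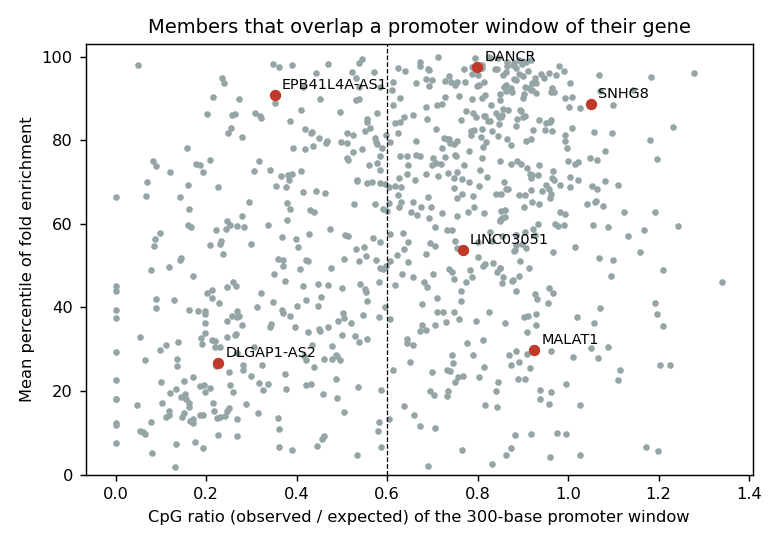
Each grey point is 1 of 788 lncRNA-end regions, placed by the CpG ratio of the promoter window it overlaps (horizontal axis) and its mean percentile over 6 libraries (vertical axis), and red points are the genes whose windows are printed. The regions right of the dashed line at 0.6 have a median percentile of 68.7 and those left of it 44.8, with wide overlap.

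The motif counts differed along the same axis. GC boxes (GGGCGG) stood in 51.0% of the 786 windows, against 25.6% of all lncRNA windows and 56.3% of coding windows. The ETS-type CCGGAAG stood in 12.6%, 5.85% and 12.8% of the same sets, and CCAAT in 34.5%, 34.4% and 34.6%. The AP-1 site TGACTCA stood in 9.03% of the windows, in 6.49% of all lncRNA windows, in 4.02% of coding windows and in 4.95% of all 35116 windows. Among windows with a CpG ratio under 0.6 it stood in 59 of 338 (17.5%) that an lncRNA-end region overlapped and in 8.08% of all 9486 such lncRNA windows. GC boxes (23.7% against 9.99%), CCGGAAG (5.92% against 2.36%) and the NRF1 palindrome (0.296% against 0.0738%) were also higher there. CCAAT (37.0% in both) and GGAATG (19.5% against 19.8%) were level, and TATAAA (12.1% against 18.9%) was lower. These 2 sets still differed in median GC content (52.7% against 46.0%) and CpG ratio (0.342 against 0.209). The AP-1 site stood in the windows of 12.2% of the 394 regions with the lower mean percentiles, and of 5.84% of the 394 with the higher ones. The TEAD-type GGAATG, the motif family through which the co-activator YAP reaches DNA, stood in 15.3% of the windows, 17.1% of all lncRNA windows and 14.0% of all windows. TATAAA was at 7.89%, 15.1% and 11.5%, and the NRF1 palindrome at 1.53%, 0.787% and 1.24%. These shares are counts of letters with no test, and only the windows overlapped by lncRNA-end regions were chosen by an open region.

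The region at the start of DLGAP1-AS2 (chr18:3603212-3604220, 1009 bp) had its midpoint 21 bp from the start site, inside the DLGAP1 span and 107684 bp from the nearest end of that gene. Its percentile was 34.6, 28.03 and 37.5 in the silenced libraries, and the control libraries had 12.2, 29.1 and 19.2, with heights of 29, 30 and 14 against 21, 34 and 23. The groups overlapped, since silenced replicate 2 was below control replicate 2. The difference in rank score was 0.43 ± 0.37 (SE; 3 libraries a group) with an adjusted p of 0.964 by limma, and 0.37 ± 0.40 (SE) with an adjusted p of 0.972 without silenced replicate 3. By height the same region was well up its lists, with a mean height percentile of 67.5 against 26.8 for fold enrichment. Fold enrichment divides height by a local background, and the background implied by height and fold averaged 3.64 at this region, against 1.29 for the median lncRNA-end region. The neighbouring antisense gene DLGAP1-AS1 had a region at its start (chr18:3593369-3594558) with percentiles of 62.5, 62.3 and 63.6 with silencing and 63.1, 44.1 and 63.2 without, and the groups overlapped there as well.

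Known lncRNA genes spread over the whole range of strength. Of 65 listed genes, 25 had an lncRNA-end region, at 27 places. A further 10 had a shared region that also lay within 1 kb of a coding gene end, among them GAS5 and SNHG1, and 3 (PVT1, MIR31HG and DLEU2) had one at or over the length limit. For 25, such as HOTAIR, MEG3 and H19, no shared region lay within 1 kb of an end, and TUG1 and TINCR were not lncRNA genes of the table.

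The strongest of the listed genes was DANCR, an RNA that keeps epidermal progenitors undifferentiated (chr4:52711903-52712645). Its percentile was 98.1, 97.6 and 98.0 in the silenced libraries against 96.0, 97.3 and 98.7 in the control ones, which overlap. SNHG15 (chr7:44986166-44987105) had 97.9, 94.9 and 94.8 in silenced and 98.0, 97.6 and 98.5 in control libraries, and its groups overlapped in that silenced replicate 1 was above control replicate 2. JPX, an RNA gene of the X-inactivation centre (chrX:73944036-73944655), had 97.9, 90.3 and 93.4 in silenced and 87.7, 93.1 and 92.8 in control libraries, with overlap. EPB41L4A-AS1, antisense to a cytoskeletal protein gene (chr5:112160417-112161344), had 91.6, 83.5 and 91.1 in silenced and 96.9, 87.7 and 94.7 in control libraries. SNHG16 (chr17:76557341-76558188) had 88.6, 96.5 and 91.9, and 90.3, 89.5 and 87.4. SNHG8 (chr4:118278310-118279226) had 89.9, 90.5 and 88.3, and 89.0, 89.5 and 84.9. In the last 3 the groups overlapped, so all 6 of these regions sat high in every list and none had a score difference that passed the test.

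Nuclear RNAs known for their abundance were not at the top by fold enrichment. MALAT1 had a mean percentile of 29.9 at its start (chr11:65497221-65497998) and 25.6 at its far end, and NEAT1 had 16.5 (chr11:65422711-65423259). Their height told another order. The mean height percentile was 63.8 and 78.2 for the MALAT1 start and far end and 76.0 for NEAT1, with implied backgrounds of 3.11, 5.31 and 6.06. At NEAT1 the percentile by fold enrichment was 44.3 in silenced replicate 3 and 7.27 to 14.7 in the other libraries. The lowest listed gene, MIRLET7BHG, a host of let-7 microRNAs (chr22:46084875-46085407), had a mean percentile of 3.63 by fold enrichment and 50.7 by height, with an implied background of 4.96. CRNDE (82.3 by fold, 95.6 by height), SNHG5 (75.6 and 94.8) and SNHG29 (79.3 and 95.7) differed in the same direction. The other listed genes between these ends were KCNQ1OT1 (mean percentile by fold 80.9), DLEU1 (72.0), MIR210HG (65.3), LUCAT1 (63.6), NORAD (62.8), SNHG17 (58.4), MIR193BHG (56.4 and 16.5 at 2 regions), MIR17HG (51.9), CCAT1 (47.9), FTX (25.8) and ZFAS1 (20.9). Some listed genes ranked lower by height than by fold. JPX had 92.5 by fold and 78.1 by height, KCNQ1OT1 80.9 and 72.4, and CCAT1 47.9 and 32.4. The same held for MIR210HG (58.8 by height), NORAD (54.1) and SNHG17 (53.3), and by less for EPB41L4A-AS1 (88.2) and SNHG16 (89.2).

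**Figure D4:**
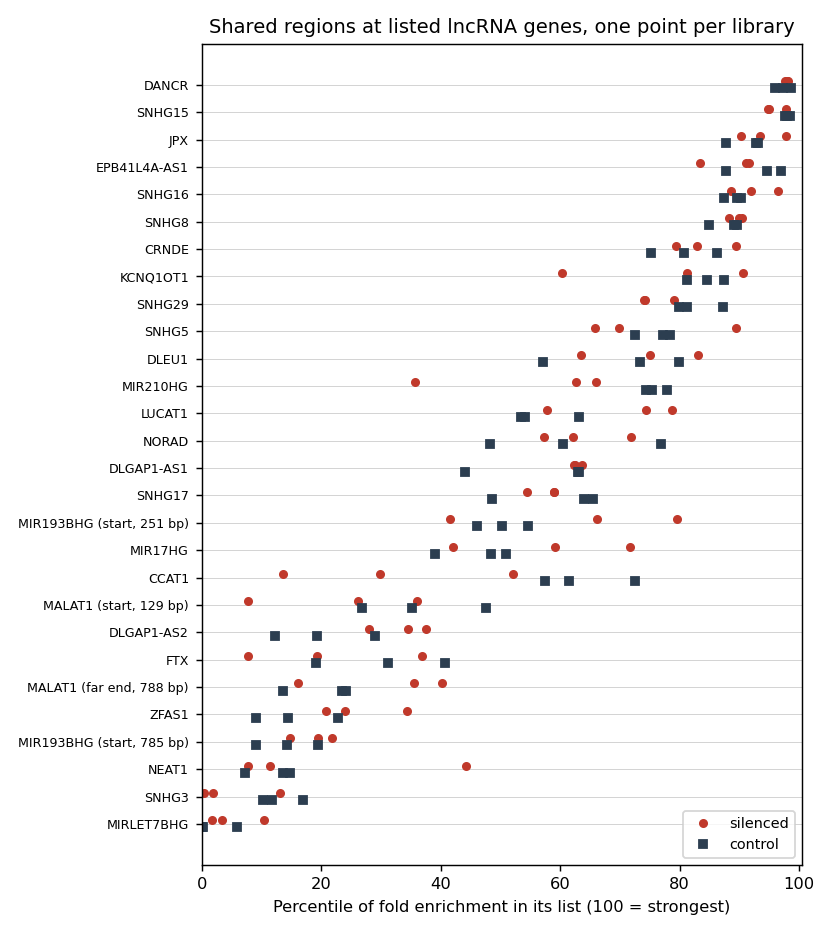
Percentile of fold enrichment (horizontal axis, 100 for the strongest shared region of a list) of the 27 regions at listed lncRNA genes and of DLGAP1-AS2, with 1 point per library, circles for silenced and squares for control. DANCR, SNHG15 and JPX sit at the right in all 6 libraries and MIRLET7BHG and SNHG3 at the left, and at NEAT1 one silenced library, replicate 3, stands at 44.3.

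Over all lncRNA-end regions the strongest by fold enrichment were at genes known only by number or by a neighbour. LOC100128966 (chr5:138331518-138332229, inside a coding gene span) had a mean percentile of 99.9 and heights of 126 to 216. LOC100630923 (chr7:102363503-102364091) had a mean of 99.8, LOC105377308 (chr4:82284771-82285402) 99.6, MPP7-DT (chr10:28302713-28303456) 99.6 and SLC28A2-AS1 (chr15:45279044-45279607) 99.6. All 5 lay at the start of their gene. They were not the highest by height: a region at LOC101928626 (chr1:629811-630104) had heights of 856 to 927 and a mean percentile of 91.2. The weakest were at LOC105369367 (chr11:69234782-69235512, mean percentile 1.94, heights of 3 to 4), LOC124901070 (chr5:134524970-134525581, 1.99) and RORB-AS1 (chr9:74497960-74498858, 2.54). LOC124901070 was weak only by fold: its heights were 10 to 30 and its implied background averaged 5.76. Of the 1890 regions 140 had a mean percentile over 90.

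The second comparison asked whether the lncRNA-end regions ranked differently in cells with silenced DLGAP1-AS2 and in control cells. The rule asks for a peak in every list, so regions that lost or gained their peak with silencing were left out beforehand. Ranks within a list also cancel any change in strength common to all shared regions. The medians and the fits by region below therefore cannot show whether silencing opened or closed regions, only whether their relative strength differed. The medians of the groups differed by less than the spread of their libraries. With DLGAP1-AS2 silenced the median percentile was 51.4 ± 0.371 (SD, n = 3), and in the control it was 51.5 ± 0.822 (SD, n = 3; exact permutation test, two-sided, p = 0.8, adjusted p = 0.8 over 5 tests; the smallest p for 3 against 3 is 0.1). The difference of −0.159 points was −0.00995 without silenced replicate 3, and turned to 0.156 without control replicate 3 and to 0.632 when ranked by height. The median length of the strongest peak was 396 ± 53.4 bp (SD, n = 3) with silencing, and 425 ± 12.8 bp (SD, n = 3) without it. Length is given as a description with no test, since the rule limits it. The difference of −28.3 bp was −0.75 bp without silenced replicate 3 and −54.0 bp without silenced replicate 2.

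Region by region, ranks were turned into normal scores and fitted with limma over all 37261 shared regions. None of the 1890 lncRNA-end regions had an adjusted p under 0.05, as was the case for the whole table (0 called, 0.0%). The smallest adjusted p was 0.963. Without silenced replicate 3 the call was also empty for both (0 called, 0.0%). At an unadjusted p under 0.05, 37 lncRNA-end regions (1.96%) ranked higher in silenced cells, against 1.98% of all shared regions, and 69 (3.65%) ranked lower, against 2.7%. The percentiles of the 2 groups did not overlap, with all silenced libraries higher, at 107 regions (5.66%, against 5.39% of all), and with all lower at 109 (5.77%, against 4.78%). The shares higher in silenced cells were close to the background, the shares lower were somewhat above it, and the difference from the background was not tested. Without silenced replicate 3, the unadjusted p was under 0.05 and the rank higher at 43 lncRNA-end regions (2.28%, against 2.08% of all), and lower at 61 (3.23%, against 2.97%). With 2 silenced libraries against 3, the groups did not overlap at 216 regions that were higher (11.4%, against 10.4% of all) and at 203 that were lower (10.7%, against 9.91%). All 4 shares were then close to the background. The median score difference was 0.02 for the lncRNA-end regions and 0.01 for all shared regions, with a median SE of 0.31 and 0.32.

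The regions with the smallest unadjusted p are given as values, since none passed the test. LINC03051 (chr3:117997312-117997833), with its midpoint 7 bp from the gene's start, had percentiles of 82.8, 71.5 and 64.1 in the silenced libraries against 35.9, 42.7 and 25.6 in the control ones. Its heights were 20, 18 and 10 against 10, 10 and 7, and the score difference was 1.03 ± 0.28 (SE; limma, adjusted p = 0.963). The percentile groups were apart, while the heights met at 10. MEF2C-AS1, antisense to a gene for a muscle and neural transcription factor (chr5:88884011-88884496), had percentiles of 28.04, 23.5 and 33.5 against 0.313, 2.60 and 11.9. Its raw heights of 14, 17 and 10 against 7, 10 and 13 overlapped. Ranked within each list, its heights had percentiles of 44.4, 47.0 and 50.9 against 12.9, 20.7 and 36.7, which were apart. A region at LOC105375931 (chr8:82443526-82443833) had percentiles of 42.9, 52.5 and 68.7 against 8.08, 15.5 and 37.4.

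In the other direction, LOC105375010 (chr6:29847833-29848446, in the major histocompatibility region 17118 bp from an end of HLA-G) had percentiles of 17.4, 43.4 and 16.1 in silenced and 65.5, 89.95 and 66.7 in control libraries. Its heights were 7, 12 and 5 against 16, 35 and 17, and the score difference was −1.40 ± 0.33 (SE; limma, adjusted p = 0.963). LINC00996, at the far end of the gene and 1755 bp from an end of GIMAP8 (chr7:150448698-150449053), had percentiles of 6.62, 11.6 and 12.4 against 60.6, 69.4 and 45.1. Its heights were 5, 6 and 5 against 16, 17 and 13. In these 2 regions both percentiles and raw heights were apart between the groups. LOC124904781 (chr19:57559474-57560124), 1596 bp from an end of the zinc finger gene ZNF550, had percentiles of 43.9, 83.3 and 69.7 against 87.5, 98.0 and 87.9, which were apart. Its raw heights of 11, 29 and 11 against 27, 46 and 31 overlapped. The height percentiles there, 33.5, 68.8 and 55.6 against 69.4, 82.5 and 73.7, were apart. The listed genes with an unadjusted p under 0.05 were CCAT1, with 52.1, 29.8 and 13.7 against 72.6, 57.4 and 61.6, and MIR210HG, the host of a hypoxia-induced microRNA, with 62.6, 66.0 and 35.7 against 77.9, 74.3 and 75.5. Both were lowest in silenced replicate 3, and both had an adjusted p of 0.963 by limma. Without that library the score difference went from −0.88 to −0.60 at CCAT1 (limma, unadjusted p = 0.0542) and from −0.58 to −0.34 at MIR210HG (limma, unadjusted p = 0.140), so neither stayed under 0.05. The listed gene SNHG3 then had a difference of −1.24 (limma, unadjusted p = 0.0195, adjusted p = 0.964). The 3 regions with the smallest p in each direction kept their direction without silenced replicate 3, and the unadjusted p at LOC105375931 became 0.0545 (limma).

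**Figure D5:**
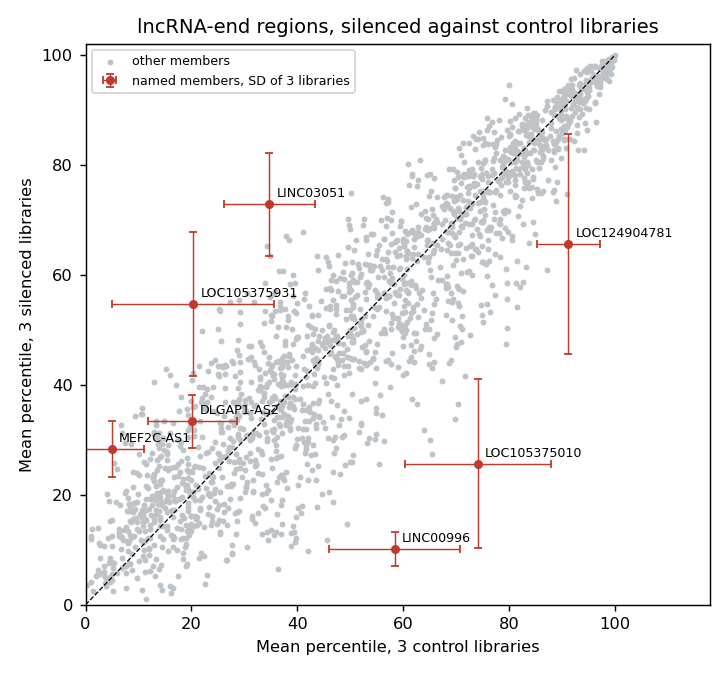
Mean percentile of each lncRNA-end region in the 3 silenced libraries (vertical axis) against the 3 control libraries (horizontal axis). The 3 regions of smallest unadjusted p in each direction and DLGAP1-AS2 are in red (bars, SD of 3 libraries). Most points lie along the dashed line of equality, and LINC03051, LINC00996 and LOC105375010 stand away from it.

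Some regions varied more between libraries than between groups. PPP1R13B-DT (chr14:103847312-103848092), a divergent transcript 1112 bp from its partner's end, had percentiles of 66.3, 91.4 and 4.62 in silenced and 77.2, 76.7 and 90.3 in control libraries. LINC02197 (chr5:71447228-71447554) had 73.8, 72.1 and 5.23 against 86.2, 70.0 and 82.7. In both, silenced replicate 3 alone was low, with a height of 3, and without it the score difference went from −0.89 to −0.03 at PPP1R13B-DT and from −0.98 to −0.24 at LINC02197. LOC105370794 (chr15:42385221-42386013) had 18.5, 4.17 and 79.9 against 63.7, 16.5 and 52.1, and there silenced replicate 3 was the highest. The part of depth in these values was not tested.

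The limits of the rule passed through a continuum of regions. Just inside the distance limit, a region at LINC00705 had its midpoint 1000 bp from the gene end and a mean percentile of 92.4, and just outside it one near LINC02912 stood at 1001 bp with 75.4. Just inside the coding limit, a region at LOC105372588 lay 1004 bp from an end of ID1 (47.9), and just outside it one at SAPCD1-AS1 lay 994 bp from an end of MSH5 (39.9). Just inside the length limit, a region at CPNE8-AS1 was 1493 bp long (59.2), and just outside it one at LINC01465 was 1501 bp long (52.8).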

How the data were processed

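The 6 samples are ATAC-seq libraries, 3 silenced and 3 control. The submitters' processing notes name Trimmomatic 0.36, Bowtie2 2.2.6, Picard 2.8.2, MACS2 2.1.1, bedtools 2.25.0 and GRCh38, without roles or parameters. A shift of reads for the transposase is not given in the sources used here. Per the file headers, each deposited list gives, for each peak, its interval, the fold enrichment as a ratio, a p-value with an FDR, and a pileup signal (height). Peaks on chromosomes 1 to 22 and X were merged at an overlap of 1 bp, and gene ends came from the RefSeq table of GRCh38.p14, which gives no exons; strand came from its promoter windows.

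Regions were ranked by their best fold enrichment, list by list. The implied background was (height + 1) / fold enrichment − 1, which assumes that 1 was added to both terms of the fold (lowest value 0.237 to 0.464 over the lists). Class medians were compared by exact sign-flip and permutation tests, with Benjamini-Hochberg adjustment over 5 tests; the fifth, on peak length, is not reported because the rule limits length. Normal scores were fitted with limma 3.58.1 (R 4.3.3, trended prior, Benjamini-Hochberg over 37261 regions), tested on simulated data first. The regions, gene list and classes were chosen with earlier results of these data known. Named regions were DLGAP1-AS2, the listed genes, the 5 highest and 3 lowest mean percentiles, the 3 smallest p-values in each direction, the 3 most variable, and those at the limits of the rule. Members named in the name classes and the sequences shown were picked after their values were seen. Alternatives changed the peak filter (FDR, height of at least 4, equal lists of 91282 peaks), the overlap, both limits, the gene set, the ranked quantity, the library set and the pairing. Depth in reads is unknown, so no interval for counting error is given.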

Additional observations from a re-analysis of the deposited data

How the results depend on the processing

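The differences to coding-end, gene-body and intergenic regions kept their sign under every alternative run, from −23.2 to −18.1, 6.71 to 18.2 and 6.14 to 18.2 percentile points over the settings and from −22.5 to −21.7, 10.1 to 10.6 and 9.18 to 9.71 when each library was left out. With 5 libraries the exact test cannot reach 0.05, so those fits say nothing about stability. The silenced minus control difference in median percentile (−0.159) turned to 0.492 with a 500 bp limit, 0.0335 with no length limit, 1.12 without LOC genes and 0.632 when ranked by height; leaving out 1 library gave −0.624 to 0.156. The difference in peak length stayed negative (−42.7 to −20.5 bp, and −54.0 to −0.75 bp with 1 library left out). The number of lncRNA-end regions was 1064 at an FDR of at most 1e-05 and 832 without LOC genes. Regions with an adjusted p under 0.05 by limma numbered 0 in each alternative. At an unadjusted p under 0.05 the lowest count was 40 of 832 regions (without LOC genes) and the highest 135 of 2462 (2 kb limit). The settings hold unlike numbers of regions, so these counts do not compare between them. Shares over all shared regions are given only for the main setting and without silenced replicate 3. With the replicate block the differences stayed −0.159 points (exact sign-flip p = 1; 3 pairs cannot go below 0.25) and −28.3 bp, and limma called 0 regions. Same-numbered libraries did not deviate together (correlations of −0.00232, 0.00248 and −0.00792 over the shared regions), so the numbers were not taken as pairs.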
